A study of Homo sapiens with 12 samples.

Results

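The active vitamin D hormone 1,25(OH)2D3 (1α,25-dihydroxyvitamin D3) was set directly against Wnt3A in the established human cell line CCD-18Co. These are myofibroblasts of the colon, stromal cells with contractile features found under the epithelium. RNA had been sequenced in 12 libraries, and the comparison rests on 6 of them, chosen by their treatment labels. In 3 libraries the cells had received 100 nM 1,25(OH)2D3 alone for 24 h, and in 3 they had received 100 ng/ml recombinant human Wnt3A alone for 24 h. The other 6 libraries came from cells given vehicle (ethanol for the hormone, albumin in phosphate-buffered saline for Wnt3A) or both agents together. They entered the same fit, where they share in the filter on low counts, the scaling and the estimate of the spread. Their values, and calls against vehicle, are quoted to place the levels. The libraries of each group are numbered 1 to 3 after independent experiments on the same line. The p-values rest on the spread between these experiments, pooled over all treatments and largely over genes, and not on spread between people. Each 1,25(OH)2D3 library was paired with the Wnt3A library of its own number, and every difference below is the log2 level with 1,25(OH)2D3 minus that with Wnt3A. Positive values thus mean higher with the hormone.

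1,25(OH)2D3 enters the cell and binds the vitamin D receptor, which pairs with a retinoid X receptor and acts as a transcription factor on its target genes. Wnt3A binds Frizzled and LRP receptors at the cell surface, which stabilises β-catenin so that it can act with TCF/LEF factors, and many of the genes it switches on encode inhibitors of the same pathway. Both signals act on the stroma of the gut, where fibroblasts near the crypt base make ligands and antagonists for the epithelial stem cells.

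The 6 libraries held 5363668 to 6119262 read equivalents, and levels are given in CPM, read equivalents scaled to a common library total, after TMM normalization. The line showed fibroblast markers at high levels, among them the collagen gene *COL1A2* at 5899 to 6886 CPM and *VIM* at 4598 to 8276 CPM. The epithelial markers *EPCAM* and *CDH1* had at most 2 reads in any of the 6 libraries, *MUC2* at most 1, *KRT19* 0 to 8 and *KRT8* 11 to 16, while *KRT18*, which overlaps *KRT8*, had 131 to 189 (24.2 to 30.8 CPM), and *KRT20*, *VIL1*, *CDX1*, *CDX2* and *LGALS4* had 0. Of the leukocyte markers, *CD3E*, *LYZ* and *HLA-DRA* had 0 reads, while *CD68* was present at 169 to 199 CPM and overlaps another gene. *CD163* had 2 to 10 reads and *CSF1R* 1 to 4. Of the endothelial markers, *TEK* had 56 to 94 reads (10.55 to 16.05 CPM) and *VWF* 13 to 26. *PECAM1*, *CDH5*, *KDR*, *TIE1* and *CLDN5* had at most 2 reads in a library and *ESAM* at most 4. The smooth muscle markers *DES* and *MYH11* had at most 4 reads in a library and *CNN1* 15 to 28. Other myofibroblast and smooth muscle markers were abundant. *MYL9* stood at 979.5 to 1241 CPM, *TAGLN* at 427.9 to 706.2, *ACTG2* at 369 to 686.6 and *ACTA2* at 99.7 to 168 CPM. In a principal component analysis of the 6 libraries over 500 variable genes, component 1 held 79.2% of the variance and parted the groups, at 15.3 to 16.5 for 1,25(OH)2D3 and -15.9 to -15.7 for Wnt3A. Libraries of different agents lay 49.0 to 52.7 apart (Euclidean distance, log2 CPM) and those of the same agent 29.2 to 31.8. It is not given in the sources used here whether reads were counted by strand. A named gene is therefore called overlapping, and its level uncertain, where another annotated gene covers at least 10% of its exon bases.

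The agents differed at 3753 of 12216 genes tested (30.7%), of which 1874 (15.3%) were higher with 1,25(OH)2D3 and 1879 (15.4%) higher with Wnt3A. Calls rest on edgeR's quasi-likelihood test, with p-values adjusted by Benjamini-Hochberg over all genes tested and a threshold of 0.05. Most of these differences were small, with a median size of 0.39 on the log2 scale for genes higher with the hormone and 0.37 for genes higher with Wnt3A. The large differences were uneven. When the difference itself was tested against 1.5-fold, 375 genes passed (3.07%), with 245 higher with 1,25(OH)2D3 (2.01%) and 130 higher with Wnt3A (1.06%). Against 2-fold, 83 and 36 genes passed (0.974% of genes tested in all). The 3 libraries of one agent lay wholly above the 3 of the other for 4556 genes (37.3%), and this held for 244 of the 245 and 128 of the 130 genes past 1.5-fold. Without the term for the experiment, 2738 genes were called (1434 and 1304), and DESeq2 with the term called 2323 (1271 and 1052). Without experiment 2 in every group, 1323 and 1185 genes were called.

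**Figure D1:**
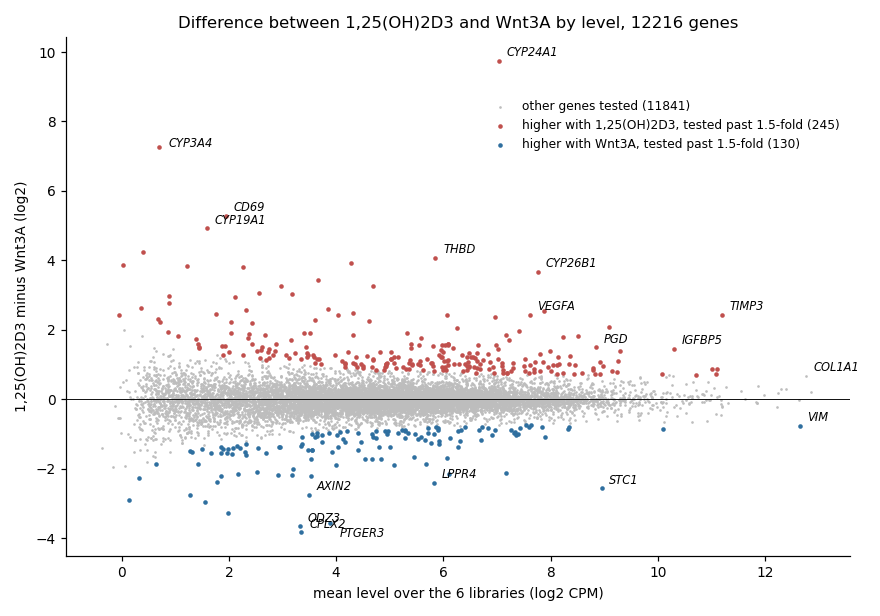
Difference between 1,25(OH)2D3 and Wnt3A (vertical axis, log2) against the mean level over the 6 libraries (horizontal axis, log2 CPM) for 12216 genes, each a point. The 245 genes in red and the 130 in blue passed the test against 1.5-fold. *CYP24A1* stands alone at 9.75, and the height of *CYP3A4*, which had 0 reads with Wnt3A, depends on the prior count of the fit.

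Vehicle gave the place of each agent. Among the 245 genes higher with 1,25(OH)2D3 past 1.5-fold, the mean of the vehicle libraries lay between the means of the 2 agents for 211 (86.1%), below both for 30 and above both for 4. Among the 130 higher with Wnt3A it lay between for 110 (84.6%), below both for 14 and above both for 6. Over all genes tested the vehicle mean lay between for 43.2%. The distance from vehicle was larger for 1,25(OH)2D3 than for Wnt3A at 190 of the 245 genes and at 42 of the 130. These are positions of means, given with no test, and the choice of genes by their difference favours a vehicle level in between.

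Genes of vitamin D metabolism and known receptor targets held the largest single difference and were mostly higher with 1,25(OH)2D3. Of 27 tested, 17 were higher with the hormone and 1 with Wnt3A (0 without the term for the experiment), against 15.3% and 15.4% of all genes. The latter was the cell cycle inhibitor gene *CDKN1A* (log2 difference -0.16, SE 0.047, adjusted p = 0.00648), named after its values were seen. The median log2 difference of the list was 0.43, beside -0.003 over all genes tested. The list was written with the large changes of this dataset known, so its direction is no independent evidence. *CYP24A1*, whose enzyme inactivates the hormone, had 208, 301 and 279.7 CPM with 1,25(OH)2D3 and 0.163, 0 and 0.665 CPM with Wnt3A. The 4337 reads of the first group against 5 of the second gave a ratio of 899 (95% counting interval 385 to 2770, counting error only). *CYP3A4*, which encodes a drug- and bile acid-oxidising enzyme, had 54 reads with 1,25(OH)2D3 and 0 with Wnt3A, at least 18.7-fold higher if the Wnt3A group is set to a floor of 3 reads in all. The lower 95% counting limit of that ratio was 14.7 (counting error only). Its close paralogs may share reads with it. *CYP3A5* had 119.9, 118 and 101 CPM with 1,25(OH)2D3 and 17.9, 25.6 and 20.3 CPM with Wnt3A, a difference of 2.42 (SE 0.085, adjusted p = 1.31e-30), and *CYP3A7*, which overlaps a readthrough gene, differed by 3.92 (SE 0.16, adjusted p = 1.35e-27). In all 3 genes every library with the hormone lay above every library with Wnt3A.

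*THBD* (chromosome 20 from 23026270 to 23030301 of GRCh37) encodes thrombomodulin, the endothelial cofactor that turns thrombin towards anticoagulation. It stood at 110.5, 109 and 108 CPM with 1,25(OH)2D3 and 7.01, 6.75 and 5.65 CPM with Wnt3A. The difference was 4.07 (SE 0.11, adjusted p = 3.44e-36), with vehicle at 10.2 ± 2.66 CPM (SD, n = 3), so that Wnt3A lay slightly below the vehicle mean and the hormone far above it. *IGFBP3*, the main carrier of insulin-like growth factors in blood, had 449.6, 430.5 and 328 CPM with 1,25(OH)2D3 and 88.8, 69.9 and 50.7 CPM with Wnt3A and a difference of 2.53 (SE 0.071, adjusted p = 1.05e-28). Experiment 3 was the lowest in both groups, and the groups did not overlap. *SEMA3B*, a secreted semaphorin gene, differed by 0.81 (SE 0.06, adjusted p = 8.38e-16). The receptor gene itself, *VDR*, had 135, 135 and 138 CPM with 1,25(OH)2D3 and 106, 107 and 102 CPM with Wnt3A, a difference of 0.38 (SE 0.059, adjusted p = 6.76e-07) and no overlap, with vehicle at 104 ± 3.69 CPM, so its Wnt3A level lay at that of vehicle.

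*CYP26B1* (chromosome 2 from 72356367 to 72374963), whose enzyme breaks down retinoic acid, had 377, 445 and 383 CPM with 1,25(OH)2D3 and 35.9, 31.2 and 26.9 CPM with Wnt3A. Its difference of 3.67 (SE 0.069, adjusted p = 8.88e-44) was larger than the spread in either group, and the groups did not overlap. *RDH10*, which catalyses the first step from retinol to retinoic acid, had 813, 843 and 978 CPM with 1,25(OH)2D3 and 217, 190.0 and 217 CPM with Wnt3A and differed by 2.07 (SE 0.051, adjusted p = 7.21e-38), so genes for the making and for the breakdown of retinoic acid were both higher with the hormone. *DHRS3*, a retinal reductase gene, differed by 0.95 (SE 0.11, adjusted p = 6.54e-10) and *RARRES2*, the chemerin gene, by 0.90 (SE 0.12, adjusted p = 1.18e-08). The receptor gene *RARB* was higher with Wnt3A, from 10 reads with 1,25(OH)2D3 to 31 with Wnt3A over the group (ratio 2.99, 95% counting interval 1.43 to 6.84). Of 14 tested retinoid genes, 6 (42.9%) were higher with 1,25(OH)2D3 and 2 (14.3%) with Wnt3A (5 and 1 without the term for the experiment). Their median of 0.12 ran from 0.05 to 0.39 over the alternatives run (other fits, scalings and count filters, and each library or experiment left out), and was 0.05 without 1,25(OH)2D3 library 3 and 0.21 without Wnt3A library 3. Of 18 steroid and xenobiotic enzymes, 7 were higher with the hormone and 5 with Wnt3A, against 15.3% and 15.4% of all genes. Their median of 0.43 fell to 0.125 with a higher count filter and to 0.31 without Wnt3A library 3. It ran from 0.125 to 0.48 over the alternatives. *CYP19A1*, the aromatase gene, had 97 reads with 1,25(OH)2D3 and 3 with Wnt3A, a ratio of 33.5 (95% counting interval 11.1 to 165). *CYP1A1*, the classic target of the aryl hydrocarbon receptor, had 14.7, 20.3 and 13.8 CPM with 1,25(OH)2D3 and 1.96, 2.37 and 1.5 CPM with Wnt3A and differed by 3.05 (SE 0.22, adjusted p = 1.55e-17). The repressor of that receptor, *AHRR*, went the other way with -0.66 (SE 0.056, adjusted p = 1.28e-14), although it overlaps a readthrough gene.

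*HSD17B2*, which encodes an enzyme that inactivates oestradiol and testosterone, had 92.0, 86.1 and 101 CPM with 1,25(OH)2D3 and 46.3, 37.1 and 44.1 CPM with Wnt3A, a difference of 1.13 (SE 0.072, adjusted p = 2.85e-19). *SLCO2B1*, an uptake transporter for steroid sulphates and drugs, had 273, 272 and 273 CPM with 1,25(OH)2D3 and 75.3, 73.9 and 58.9 CPM with Wnt3A and differed by 1.98 (SE 0.062, adjusted p = 5.31e-33). Its 3 hormone libraries were nearly equal, and its vehicle level of 119 ± 0.664 CPM lay between the agents.

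The pentose phosphate pathway and the targets of NRF2, the transcription factor of the antioxidant response, were mostly higher with the hormone. Of 39 tested genes, 29 were higher with 1,25(OH)2D3 (15.3% of all genes were) and 1 with Wnt3A. The exception was the ribose-5-phosphate isomerase gene *RPIA* (log2 difference -0.44, SE 0.15, adjusted p = 0.0186), named after its values were seen. The median log2 difference was 0.40, and within experiments 1, 2 and 3 the medians of the same genes were 0.37, 0.36 and 0.37 on the log2 scale of CPM + 0.5. *PGD* (chromosome 1 from 10459085 to 10480201 of GRCh37), which encodes the second NADPH-making dehydrogenase of the pathway, had 686, 741 and 622 CPM with 1,25(OH)2D3 and 251, 238 and 235 CPM with Wnt3A. It differed by 1.5 (SE 0.051, adjusted p = 4.3e-31), with vehicle at 312 ± 8.20 CPM. *GCLC*, the catalytic subunit of the enzyme that limits glutathione synthesis, had 152, 141 and 156 CPM with 1,25(OH)2D3 and 53.1, 47.6 and 50.5 CPM with Wnt3A, a difference of 1.57 (SE 0.069, adjusted p = 2.12e-26). No library with Wnt3A reached the level of any with the hormone in these genes.

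The gene of NRF2 itself, *NFE2L2*, had 889, 925 and 920.0 CPM with 1,25(OH)2D3 and 344, 354 and 336 CPM with Wnt3A and differed by 1.40 (SE 0.049, adjusted p = 6.21e-31), but 23.4% of its exon bases overlap *HNRNPA3* on the other strand. *TXNRD1* (chromosome 12 from 104609559 to 104744062), the cytosolic thioredoxin reductase gene, had 2735, 2687 and 2572 CPM with 1,25(OH)2D3 and 1431, 1369 and 1557 CPM with Wnt3A. Its difference was 0.88 (SE 0.048, adjusted p = 9.42e-22), with vehicle at 2145 ± 152 CPM and both agents together at 1841 ± 81.7 CPM (SD, n = 3). *ABCC1*, an export pump for glutathione conjugates, differed by 1.01 (SE 0.055, adjusted p = 2.85e-22). Set beside vehicle, 13 of the 39 genes were called higher and 7 lower with 1,25(OH)2D3 (13% and 11.2% of all genes), and 0 higher and 27 lower with Wnt3A (7.37% and 6.18%). The comparisons with vehicle share the vehicle libraries with each other and the treated libraries with the direct comparison, so these counts are set side by side and not added up.

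The start regions of *TXNRD1* and *PGD* are shown because both genes had high levels in this group and hold the letters of the antioxidant response element core, TGACNNNGC, on either strand. They run from 250 bases before to 50 after the start in RefSeq (GRCh38.p14, chr12:104215529-104215828 and chr1:10398814-10399113, both on the plus strand), and capitals mark each match.
TXNRD1: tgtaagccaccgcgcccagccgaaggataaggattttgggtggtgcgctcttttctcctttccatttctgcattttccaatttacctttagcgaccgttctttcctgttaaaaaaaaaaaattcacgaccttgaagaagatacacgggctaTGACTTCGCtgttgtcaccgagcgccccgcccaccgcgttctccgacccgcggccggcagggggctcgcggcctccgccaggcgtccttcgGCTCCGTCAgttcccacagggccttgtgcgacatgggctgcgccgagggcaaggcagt
PGD: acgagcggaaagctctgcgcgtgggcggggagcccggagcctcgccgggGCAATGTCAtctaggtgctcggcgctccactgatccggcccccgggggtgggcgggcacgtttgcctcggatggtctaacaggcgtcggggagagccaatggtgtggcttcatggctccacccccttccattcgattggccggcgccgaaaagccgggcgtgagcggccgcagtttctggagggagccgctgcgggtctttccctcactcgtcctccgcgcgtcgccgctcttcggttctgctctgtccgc
Counted on both strands, the core was present in 8 of 30 start regions of the list that RefSeq matched (26.7%) in 15.1% of the 9866 start regions of tested genes and in 13.6% of all 27305 in RefSeq. Among genes past 1.5-fold it was present in 14.7% of 177 start regions higher with 1,25(OH)2D3 and 11% of 91 higher with Wnt3A. These shares are descriptions of letters in a window of 300 bases.

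**Figure D2:**
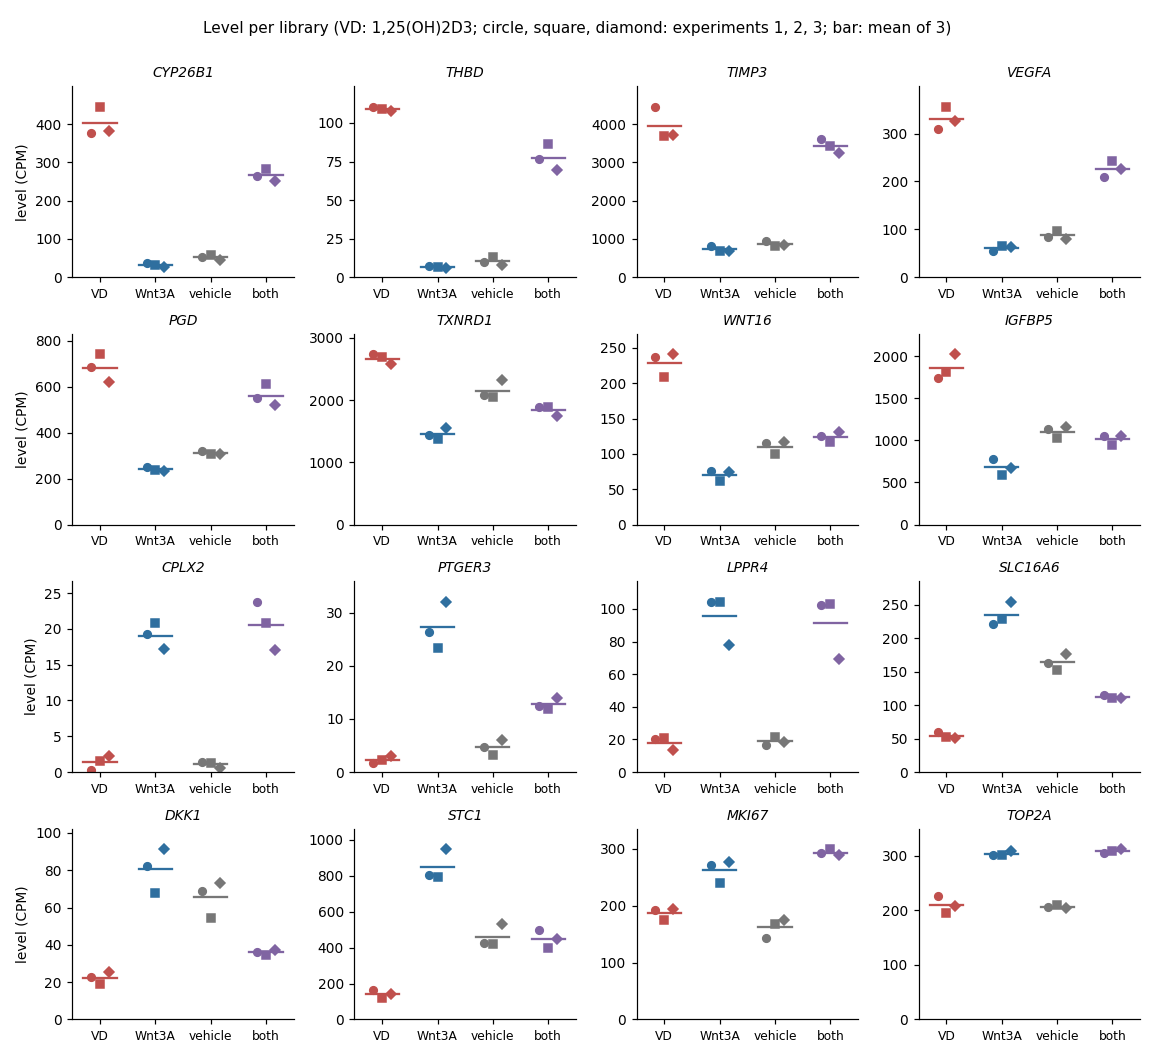
Level per library (CPM, linear axes from 0) of 16 genes with 1,25(OH)2D3, Wnt3A, vehicle and both agents. Symbols mark experiments 1 to 3 and bars the means of 3 libraries. In the upper 8 genes each hormone library stands above each Wnt3A library, and in the lower 8 the order is reversed, as for *DKK1* with 22.3 ± 3.21 CPM against 80.5 ± 11.9 CPM (SD, n = 3).

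*TIMP3* (chromosome 22 from 33196802 to 33259028), an inhibitor of matrix metalloproteinases that stays bound to the matrix, had 4449.9, 3676 and 3719.6 CPM with 1,25(OH)2D3 and 815, 695 and 680.1 CPM with Wnt3A. It differed by 2.43 (SE 0.045, adjusted p = 4.48e-44), with vehicle at 869.5 ± 76.2 CPM, close to Wnt3A. *VEGFA*, the main growth factor of blood vessels, had 309, 356 and 326 CPM with 1,25(OH)2D3 and 54.4, 65.7 and 63.7 CPM with Wnt3A and differed by 2.43 (SE 0.06, adjusted p = 5.76e-38). Its relative *VEGFC*, which acts on lymphatic vessels, went the other way with 76.5, 76.8 and 80.1 CPM with 1,25(OH)2D3 and 129, 126 and 148 CPM with Wnt3A, a difference of -0.79 (SE 0.067, adjusted p = 1.58e-14). The vehicle mean of *VEGFC* was 158 ± 24.2 CPM, above both agents. *IGFBP5*, a binding protein of insulin-like growth factors in matrix, had 1735, 1809.7 and 2022 CPM with 1,25(OH)2D3 and 776, 594 and 672 CPM with Wnt3A and differed by 1.45 (SE 0.053, adjusted p = 9.74e-26). *IGF1R*, the receptor gene, stood at 75.1, 71.7 and 73.5 CPM with 1,25(OH)2D3 and 106, 103 and 94.3 CPM with Wnt3A and differed by -0.46 (SE 0.065, adjusted p = 5.65e-08).

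The receptor tyrosine kinase genes *EGFR* and *PDGFRA* were higher with the hormone. *EGFR* stood at 347, 377 and 394 CPM with 1,25(OH)2D3 and 188, 178 and 194 CPM with Wnt3A (log2 difference 0.99, SE 0.061, adjusted p = 9.04e-18), and *PDGFRA*, a receptor for platelet-derived growth factor that overlaps another gene, differed by 0.98 (SE 0.051, adjusted p = 8.34e-23). *FGF7*, a stromal growth factor for epithelium, had 151, 116 and 146 CPM with 1,25(OH)2D3 and 69.1, 52.2 and 82.5 CPM with Wnt3A and differed by 1.03 (SE 0.067, adjusted p = 4.78e-19). *ANGPTL4*, an inhibitor of lipoprotein lipase, differed by 1.92 (SE 0.17, adjusted p = 1.88e-14). Vehicle stood at 172 ± 27.1 CPM for *FGF7*, above the hormone mean. The median of 33 tested growth factor genes was 0.18 (0.11 to 0.22 over the alternatives). Against 15.3% and 15.4% of all genes, 14 of them were higher with 1,25(OH)2D3 and 8 with Wnt3A. The largest of the latter was *STC1*, the gene of stanniocalcin, a secreted glycoprotein hormone, which had 166, 120.0 and 144 CPM with 1,25(OH)2D3 and 802, 791 and 948 CPM with Wnt3A and differed by -2.56 (SE 0.095, adjusted p = 8.11e-11). Vehicle stood between the agents at 459.8 ± 63.6 CPM.

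Of 32 tested genes of MAP kinase feedback or the immediate early response to signals, 16 were higher with Wnt3A and 3 with the hormone. Over all genes the shares were 15.4% and 15.3%, and the list median was -0.24. The receptor tyrosine kinase antagonist gene *SPRY2* had 20.5, 15.5 and 17.3 CPM with 1,25(OH)2D3 and 52.0, 43.6 and 43.1 CPM with Wnt3A and differed by -1.38 (SE 0.099, adjusted p = 2.06e-17). *ETV1*, an ETS transcription factor gene, differed by -1.20 (SE 0.071, adjusted p = 1.23e-20) and *DUSP14*, a phosphatase gene, by -0.73 (SE 0.061, adjusted p = 5.06e-15). The ERK phosphatase gene *DUSP6*, which overlaps another gene, stood at 77.0, 79.4 and 90.3 CPM with 1,25(OH)2D3 and 137, 136 and 162 CPM with Wnt3A (log2 difference -0.82, SE 0.061, adjusted p = 8.18e-17). For *SPRY2* the vehicle mean was 42.1 ± 7.16 CPM and that of both agents 16.9 ± 1.18 CPM, so the 2 groups without the hormone were the high ones.

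Cytokine signalling held genes on both sides. Against 15.3% and 15.4% of all genes, 17 of 38 were higher with 1,25(OH)2D3 and 7 with Wnt3A (4 without the term for the experiment). Their median of 0.20 had no settled sign, at -0.02 with a higher count filter, 0.48 without 1,25(OH)2D3 library 2 and 0.46 without Wnt3A library 3. The signal-transducing receptor of the interleukin-6 family, *IL6ST*, was the most abundant and had 2772, 2670.3 and 3063 CPM with 1,25(OH)2D3 and 1553, 1450.1 and 1663 CPM with Wnt3A, a difference of 0.87 (SE 0.049, adjusted p = 3.62e-20). Its vehicle mean was 2632 ± 419.8 CPM, close to the hormone. *IL6* had 79.2, 68.5 and 75.9 CPM with 1,25(OH)2D3 and 36.8, 34.3 and 37.7 CPM with Wnt3A and differed by 1.04 (SE 0.082, adjusted p = 9.09e-16). *IL1R1*, the signalling receptor of interleukin-1, differed by 1.06 (SE 0.06, adjusted p = 1.28e-21), the macrophage growth factor gene *CSF1* by 0.74 (SE 0.05, adjusted p = 1.6e-18) and the NF-κB inhibitor gene *NFKBIA* by 1.03 (SE 0.082, adjusted p = 8.23e-16). *IL1RL1*, the interleukin-33 receptor gene, had 15.4, 14.0 and 13 CPM with 1,25(OH)2D3 and 1.96, 0.913 and 1.5 CPM with Wnt3A, which was 3.25 (SE 0.27, adjusted p = 2.03e-14). On the other side stood *IL16* with 10.9, 16.3 and 12.8 CPM with 1,25(OH)2D3 and 40.7, 53.1 and 36.6 CPM with Wnt3A (log2 difference -1.71, SE 0.12, adjusted p = 4.13e-18) and *IL24* with 12 reads under 1,25(OH)2D3 and 128 under Wnt3A (ratio 10.3, 95% counting interval 5.69 to 20.4), and both overlap a gene on the other strand. *CD69*, a surface protein of activated lymphocytes, was among the largest differences on the hormone side, with 124 reads against 3 (ratio 42.8, 95% counting interval 14.3 to 210.5).

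Prostaglandin genes lay on both sides. *PTGS1*, the constitutive cyclooxygenase gene, had 241, 202 and 234 CPM with 1,25(OH)2D3 and 76.9, 54.8 and 56.5 CPM with Wnt3A and differed by 1.85 (SE 0.069, adjusted p = 1.66e-28). *PTGR1*, whose enzyme inactivates prostaglandins and leukotriene B4, differed by 0.92 (SE 0.061, adjusted p = 7.79e-19), and the thromboxane synthase gene *TBXAS1* by 0.79 (SE 0.11, adjusted p = 1.48e-08). The receptor genes went apart. *PTGER4* had 59.9, 65.2 and 74.4 CPM with 1,25(OH)2D3 and 37.5, 38 and 40.9 CPM with Wnt3A (log2 difference 0.77, SE 0.082, adjusted p = 2.46e-11), while *PTGER3* (chromosome 1 from 71318036 to 71513491) had 1.71, 2.22 and 3.02 CPM with 1,25(OH)2D3 and 26.4, 23.4 and 32.1 CPM with Wnt3A (log2 difference -3.56, SE 0.18, adjusted p = 1.18e-23). Every library with Wnt3A lay far above every library with the hormone for *PTGER3*, and vehicle stood at 4.63 ± 1.40 CPM. In all, 8 of 19 genes were higher with 1,25(OH)2D3 and 3 (15.8%) with Wnt3A, against 15.3% and 15.4% of all genes. The list median of 0.44 was 0.25 without 1,25(OH)2D3 library 3, 0.29 without Wnt3A library 1 and 0.22 to 0.50 over the alternatives.

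Targets and feedback inhibitors of Wnt/β-catenin signalling were higher with Wnt3A for 15 of 33 tested genes and higher with 1,25(OH)2D3 for 9, against 15.4% and 15.3% of all genes. The median of -0.16 was -0.27 without 1,25(OH)2D3 library 2, -0.09 without Wnt3A library 1 and -0.27 to -0.07 over the alternatives. *AXIN2*, a scaffold of the β-catenin destruction complex that overlaps another gene, had 3.07, 2.95 and 2.64 CPM with 1,25(OH)2D3 and 23.6, 18.6 and 16.5 CPM with Wnt3A and differed by -2.75 (SE 0.19, adjusted p = 6.36e-18). *APCDD1*, a membrane inhibitor of Wnt signalling, had 35.9, 38.8 and 20.5 CPM with 1,25(OH)2D3 and 113, 124 and 67.5 CPM with Wnt3A. Experiment 3 was low in both groups, and the difference of -1.67 (SE 0.089, adjusted p = 3.39e-21) still separated them. *NKD1*, an inhibitor of Dishevelled, had 7 reads with 1,25(OH)2D3 and 29 with Wnt3A (ratio 4.0, 95% counting interval 1.71 to 10.8). Its relative *NKD2* had 29.5, 32.7 and 27.1 CPM with 1,25(OH)2D3 and 42.7, 47.6 and 29.4 CPM with Wnt3A, a difference of -0.42 (SE 0.1, adjusted p = 0.000778), with overlapping groups and a vehicle mean of 13.8 ± 3.40 CPM. Both agents thus lay above vehicle for *NKD2*. *TCF7*, a transcription factor gene of the pathway, differed by -1.71 (SE 0.16, adjusted p = 2.22e-13) and the receptor gene *TNFRSF19* by -1.90 (SE 0.11, adjusted p = 3.06e-21).

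The secreted antagonist genes *DKK1* and *DKK2* were both higher with Wnt3A but lay differently against vehicle. *DKK1*, of whose exon bases 10.2% overlap an antisense gene, had 22.5, 19.0 and 25.4 CPM with 1,25(OH)2D3 and 82.5, 67.7 and 91.3 CPM with Wnt3A and differed by -1.85 (SE 0.086, adjusted p = 3.45e-25), with vehicle at 65.6 ± 9.94 CPM, near Wnt3A. *DKK2* had 3.24, 2.95 and 6.22 CPM with 1,25(OH)2D3 and 19.1, 15.3 and 22.1 CPM with Wnt3A and differed by -2.19 (SE 0.17, adjusted p = 1.14e-15), with vehicle at 4.03 ± 1.55 CPM, near the hormone. *CCND1*, the cyclin D1 gene, which overlaps *LTO1* on the other strand, had 1571, 1504 and 1526 CPM with 1,25(OH)2D3 and 2393, 2293 and 2354 CPM with Wnt3A (log2 difference -0.61, SE 0.042, adjusted p = 2.45e-18) and vehicle at 2136 ± 28.4 CPM. The matricellular gene *CYR61* differed by -0.59 (SE 0.051, adjusted p = 2.8e-14). Among the 9 list members higher with the hormone was *BAMBI*, a decoy receptor of TGF-β signalling, with 186, 239 and 167 CPM with 1,25(OH)2D3 and 111, 124 and 97.9 CPM with Wnt3A and a difference of 0.82 (SE 0.059, adjusted p = 2.79e-17).

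Of 16 Wnt ligand and receptor genes tested, 7 were higher with 1,25(OH)2D3 and 4 with Wnt3A, against 15.3% and 15.4% of all genes. Without the term for the experiment 2 were higher with Wnt3A. *WNT16* had 238, 209 and 241 CPM with 1,25(OH)2D3 and 75.3, 61.0 and 74.0 CPM with Wnt3A and differed by 1.71 (SE 0.059, adjusted p = 5.21e-31). The receptor gene *FZD1* had 184, 188 and 198 CPM with 1,25(OH)2D3 and 69.3, 57.1 and 64.2 CPM with Wnt3A (log2 difference 1.58, SE 0.065, adjusted p = 2.45e-27), and *FZD4*, which overlaps *PRSS23*, differed by 1.43 (SE 0.077, adjusted p = 2.06e-22) and *FZD8* by 1.15 (SE 0.15, adjusted p = 8.07e-09). *WNT5A*, a ligand that acts mostly without β-catenin, went the other way by -0.35 (SE 0.046, adjusted p = 1.66e-08). For *FZD1* vehicle stood at 86.5 ± 4.92 CPM, between the agents and nearer to Wnt3A.

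*CPLX2* (chromosome 5 from 175223610 to 175311023 of GRCh37), which encodes a complexin of synaptic vesicle release, had 0.341, 1.48 and 2.26 CPM with 1,25(OH)2D3 and 19.2, 20.8 and 17.1 CPM with Wnt3A. Its 22 reads against 335 gave a ratio of 14.7 (95% counting interval 9.55 to 23.8), and it differed by -3.82 (SE 0.24, adjusted p = 2.02e-19). *ODZ3*, the teneurin-3 gene of neuronal wiring, had 1.37, 1.48 and 1.51 CPM with 1,25(OH)2D3 and 19.1, 22.1 and 14.6 CPM with Wnt3A (log2 difference -3.66, SE 0.23, adjusted p = 6.77e-20), and *LPPR4*, a phospholipid phosphatase-related gene of neurons, had 19.98, 20.7 and 13.4 CPM with 1,25(OH)2D3 and 104, 104 and 78.1 CPM with Wnt3A (log2 difference -2.41, SE 0.092, adjusted p = 6.24e-29). *NTM*, a neural adhesion molecule gene, differed by -2.17 (SE 0.19, adjusted p = 5.93e-14), and *CNIH3*, an auxiliary subunit of glutamate receptors, by -2.17 (SE 0.21, adjusted p = 9.39e-13). For *LPPR4* the hormone lay at the level of vehicle (19.0 ± 2.39 CPM). Vehicle stood at 1.06 ± 0.486 CPM for *CPLX2*, whose 22 hormone reads are too few to place the hormone against it. By quantitative PCR, the paper found *CPLX2* RNA significantly above vehicle after the hormone alone. Its own RNA sequencing showed a rise that was not significant.

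The list of axon guidance and synaptic genes as a whole was split, with 12 of 35 higher with Wnt3A and 10 with 1,25(OH)2D3. The shares over all genes were 15.4% and 15.3%, and the list median was -0.14 (-0.19 to -0.07 over the alternatives). The semaphorin genes *SEMA3A* (log2 difference -0.83, SE 0.062, adjusted p = 1.97e-16) and *SEMA5A* (log2 difference -1.04, SE 0.065, adjusted p = 8.83e-19) were higher with Wnt3A. The ephrin receptor gene *EPHA4* had 90.2, 113 and 103 CPM with 1,25(OH)2D3 and 30.8, 39.2 and 34.1 CPM with Wnt3A (log2 difference 1.56, SE 0.077, adjusted p = 8.07e-24) and *SEMA6A* differed by 1.01 (SE 0.07, adjusted p = 5.96e-18). Of 8 markers of glia and neurons, 3 passed the filter on low counts and 2 of them were higher with Wnt3A. *TUBB3*, a neuronal tubulin gene that overlaps another gene, had 76.2, 75.5 and 62.9 CPM with 1,25(OH)2D3 and 141, 133 and 123 CPM with Wnt3A (log2 difference -0.89, SE 0.065, adjusted p = 4.71e-17), and the receptor gene *RET* had 4.61, 6.28 and 6.41 CPM with 1,25(OH)2D3 and 12.9, 15.3 and 15.6 CPM with Wnt3A (log2 difference -1.34, SE 0.17, adjusted p = 1.94e-09). The glial markers *S100B* and *SOX10* had 0 reads in the 6 libraries. The part of such cells in these differences was not tested.

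Other genes with large differences on the side of Wnt3A were at low levels. *FAM162B* had 11 reads with 1,25(OH)2D3 and 92 with Wnt3A (ratio 8.07, 95% counting interval 4.31 to 16.7), the scaffold gene *CASS4* 27 and 129, the ubiquitin-conjugating gene *UBE2QL1* 18 and 102, *ILDR2* 21 and 106, and the desmosome gene *PKP2* 10 and 73. *SLC16A6*, a transporter of the monocarboxylate family, was at higher levels with 59.6, 51.7 and 51.1 CPM with 1,25(OH)2D3 and 221, 229 and 255 CPM with Wnt3A. It had the smallest p on this side (log2 difference -2.11, SE 0.066, adjusted p = 6.34e-33), with vehicle at 164 ± 12.1 CPM. *ST3GAL5*, which makes the ganglioside GM3, had 149, 150.1 and 162 CPM with 1,25(OH)2D3 and 309.8, 339 and 329 CPM with Wnt3A (log2 difference -1.08, SE 0.054, adjusted p = 6.03e-24) and vehicle midway at 236 ± 8.62 CPM.

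The start region of *FAM162B* is shown as 1 of 2 that held the TCF/LEF letters CTTTGAT, on either strand, among 91 start regions of genes past 1.5-fold on the side of Wnt3A (2.2%, beside 1.31% of start regions of tested genes and 2.64% of all in RefSeq). It lies on the minus strand at chr6:116765670-116765969 (RefSeq, GRCh38.p14), is written 5′ to 3′ in the direction of the gene, and capitals mark the match.
FAM162B: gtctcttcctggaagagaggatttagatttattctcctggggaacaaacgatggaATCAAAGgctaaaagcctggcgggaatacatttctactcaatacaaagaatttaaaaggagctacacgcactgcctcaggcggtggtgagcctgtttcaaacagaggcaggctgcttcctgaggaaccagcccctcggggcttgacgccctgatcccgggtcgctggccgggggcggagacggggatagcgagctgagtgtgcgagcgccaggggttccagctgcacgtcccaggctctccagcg
None of 177 start regions of genes past 1.5-fold on the side of the hormone held a vitamin D response element of the DR3 type, which 0.132% of the start regions of tested genes and 0.238% of all in RefSeq held. This says only that these letters are not in this window.

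On the hormone side, the remaining genes with the largest differences included enzymes, receptors and channel subunits. *SMPD3*, a neutral sphingomyelinase gene that overlaps *PRMT7* on the other strand, had 33.3, 48.9 and 57.7 CPM with 1,25(OH)2D3 and 3.42, 6.39 and 4.82 CPM with Wnt3A (log2 difference 3.26, SE 0.13, adjusted p = 1.34e-27). *TMEM37*, a subunit related to calcium channels, had 18.6, 28.3 and 23.0 CPM with 1,25(OH)2D3 and 1.96, 3.10 and 1.33 CPM with Wnt3A (log2 difference 3.45, SE 0.19, adjusted p = 1.5e-21). *KRT4*, a keratin gene of stratified epithelium, had 149 reads against 11 (ratio 14.0, 95% counting interval 7.62 to 28.7). The small GTPase gene *RASL11A* differed by 2.59 (SE 0.16, adjusted p = 5.02e-20), the potassium channel subunit gene *KCNE4* by 2.96 (SE 0.31, adjusted p = 1.19e-11), the adhesion receptor gene *GPR133* by 2.57 (SE 0.28, adjusted p = 6.86e-11), and *C10orf81* by 3.05 (SE 0.26, adjusted p = 1.84e-14). *RGS2*, which speeds the switching off of G proteins, had 207, 227 and 196 CPM with 1,25(OH)2D3 and 37.3, 44.4 and 40.9 CPM with Wnt3A (log2 difference 2.36, SE 0.07, adjusted p = 4.9e-34). *RPS6KA2*, a kinase downstream of ERK, had 432, 483 and 489 CPM with 1,25(OH)2D3 and 143, 136 and 128 CPM with Wnt3A (log2 difference 1.78, SE 0.055, adjusted p = 2.88e-33). Groups did not overlap for any of these genes.

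Genes of cell division were higher with Wnt3A almost throughout, beside 15.4% of all genes (15.3% were higher with 1,25(OH)2D3). Of 49 tested genes of mitosis and the G2/M transition, 44 were higher with Wnt3A, 4 were not called and 1 was higher with 1,25(OH)2D3 (0 without the term for the experiment). That 1 was the phosphatase gene *CDC25B* (log2 difference 0.19, SE 0.061, adjusted p = 0.0108), whose groups overlapped and which was named after its values were seen. The median log2 difference was -0.50, with medians within experiments 1, 2 and 3 of -0.41, -0.54 and -0.51. *TOP2A*, the topoisomerase that untangles chromosomes, had 227, 195 and 208 CPM with 1,25(OH)2D3 and 301, 301 and 309 CPM with Wnt3A (log2 difference -0.53, SE 0.052, adjusted p = 1.57e-12). *MKI67*, the proliferation marker, had 192, 174 and 195 CPM with 1,25(OH)2D3 and 272, 239.7 and 277 CPM with Wnt3A (log2 difference -0.49, SE 0.058, adjusted p = 4.61e-10), and *CDK1*, the mitotic kinase, had 76.2, 73.5 and 73.7 CPM with 1,25(OH)2D3 and 109.5, 109.7 and 110.2 CPM with Wnt3A (log2 difference -0.56, SE 0.065, adjusted p = 3.87e-10). *AURKA*, the kinase of the spindle poles, showed a larger gap with 26.3, 27.0 and 26.6 CPM with 1,25(OH)2D3 and 48.6, 50.6 and 46.7 CPM with Wnt3A (log2 difference -0.87, SE 0.09, adjusted p = 1.27e-11). In each of these 4 genes the lowest Wnt3A library lay above the highest hormone library. The RNA comes from whole cultures, in which fewer cells of a kind and less RNA per cell cannot be told apart.

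Of 44 genes of DNA replication and the S phase, 29 were higher with Wnt3A and 0 with 1,25(OH)2D3, against 15.4% and 15.3% of all genes. The median was -0.30, with medians within experiments of -0.32, -0.26 and -0.35. DESeq2 on the 6 libraries without the term for the experiment called 13 of the 44 genes, all higher with Wnt3A. The ribonucleotide reductase subunit *RRM2* had 244, 228 and 251 CPM with 1,25(OH)2D3 and 352, 315 and 369 CPM with Wnt3A (log2 difference -0.52, SE 0.052, adjusted p = 4.38e-12), the helicase subunit *MCM7* had 117, 106 and 116 CPM with 1,25(OH)2D3 and 172, 141 and 158 CPM with Wnt3A (log2 difference -0.47, SE 0.06, adjusted p = 4.16e-09), and *UHRF1*, which helps to copy DNA methylation, had 26.6, 28.4 and 23.6 CPM with 1,25(OH)2D3 and 48.4, 36.7 and 42.6 CPM with Wnt3A (log2 difference -0.70, SE 0.099, adjusted p = 6.56e-08). Set beside vehicle, 43 of the 49 mitosis genes were higher and 0 lower with Wnt3A (7.37% and 6.18% of all genes), and 3 were higher and 3 lower with 1,25(OH)2D3 (13% and 11.2%). For the S phase list the counts were 37 and 0 with Wnt3A and 8 and 0 with 1,25(OH)2D3. The vehicle means of *TOP2A* and *MKI67* were 207 ± 3.15 and 162 ± 15.9 CPM, near the hormone, and those with both agents 309 ± 3.16 and 293 ± 5.48 CPM, near Wnt3A. In a proliferation assay read days later than this RNA, the paper reported less proliferation than vehicle with either agent alone. The reduction was larger with 1,25(OH)2D3. How the RNA levels relate to that assay was not tested. In the list of D cyclins, cyclin-dependent kinase inhibitors and MYC, which act before the S phase, 9 of 21 genes were higher with Wnt3A and 5 with the hormone, with a median of -0.12 (-0.19 to -0.08 over the alternatives). The former count fell to 4 without 1,25(OH)2D3 library 1 and to 5 without experiment 1 or 2, and the latter to 3 without either library of experiment 3.

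The start regions of *MKI67* and *ANLN*, the anillin gene of cell cleavage (211, 162 and 161 CPM with 1,25(OH)2D3 and 266, 247 and 238 CPM with Wnt3A, log2 difference -0.50, SE 0.056, adjusted p = 1.3e-10), are shown because the letters of the cell cycle homology region, TTTGAA, were common in this group. They come from RefSeq (GRCh38.p14, chr10:128126374-128126673 on the minus strand and chr7:36389612-36389911 on the plus strand), are written in the direction of the gene, and capitals mark matches on either strand.
MKI67: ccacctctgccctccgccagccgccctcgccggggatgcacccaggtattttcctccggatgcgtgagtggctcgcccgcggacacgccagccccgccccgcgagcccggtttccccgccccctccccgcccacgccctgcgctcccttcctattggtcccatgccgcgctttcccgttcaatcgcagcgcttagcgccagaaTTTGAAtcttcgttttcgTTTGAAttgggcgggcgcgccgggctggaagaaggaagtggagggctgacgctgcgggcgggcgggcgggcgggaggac
ANLN: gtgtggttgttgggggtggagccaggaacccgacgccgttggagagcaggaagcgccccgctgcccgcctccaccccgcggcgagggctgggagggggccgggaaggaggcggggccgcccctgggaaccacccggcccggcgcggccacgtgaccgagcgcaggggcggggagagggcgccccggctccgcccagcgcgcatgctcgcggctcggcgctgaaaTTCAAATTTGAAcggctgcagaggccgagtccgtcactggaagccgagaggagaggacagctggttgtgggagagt
The letters stood in 29 of 42 matched start regions of the mitosis list (69.0%), in 1 of 38 of the S phase list (2.63%) in 9.66% of start regions of tested genes and in 15.4% of all in RefSeq. CCAAT on either strand stood in 69.0% of the mitosis start regions in 36.6% of those of tested genes and in 35.7% of all. The E2F letters TTTGGCGC stood in 21.1% of the S phase start regions, in 2.38% of the mitosis ones, in 1.17% of those of tested genes and in 0.659% of all. In *MKI67* the 2 matches of TTTGAA begin 47 and 29 bases before the start, and in *ANLN* the 2 adjoin, on opposite strands, 26 to 15 bases before it. The second match of *MKI67* overlaps a CCAAT box on the other strand by 1 base.

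**Figure D3:**
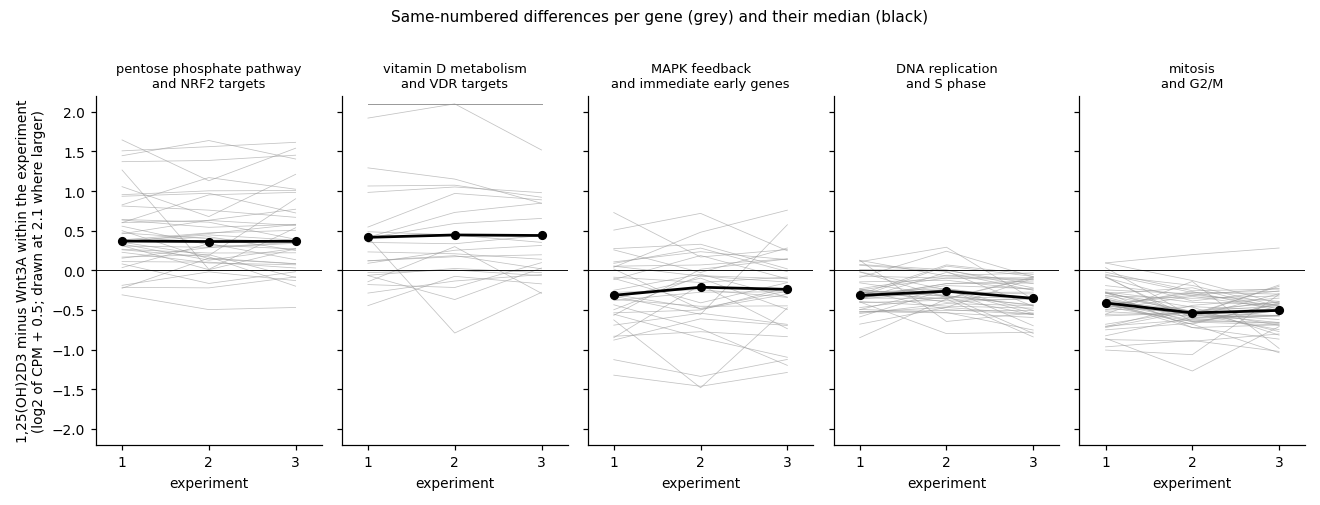
Difference between 1,25(OH)2D3 and Wnt3A within each of the 3 experiments (log2 of CPM + 0.5) for every tested gene of 5 lists (grey lines) and the list median (black). The medians of the 39 pentose phosphate and NRF2 genes lie at 0.36 to 0.37 and those of the 49 mitosis genes at -0.54 to -0.41, on the same side of 0 in each experiment.

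Coagulation and fibrinolysis genes separated the agents beyond *THBD*. *F3*, tissue factor, which starts coagulation, had 1447, 1473 and 1451 CPM with 1,25(OH)2D3 and 954, 899 and 857 CPM with Wnt3A (log2 difference 0.69, SE 0.045, adjusted p = 3.65e-19). The thrombin receptor genes *F2R* (log2 difference 0.53, SE 0.045, adjusted p = 1.74e-14) and *F2RL2* (174, 157 and 155 CPM with 1,25(OH)2D3 and 59.7, 70.5 and 65.5 CPM with Wnt3A, log2 difference 1.32, SE 0.073, adjusted p = 1.34e-20) were higher with the hormone, and for *F2RL2* vehicle stood near it (179.6 ± 16.7 CPM). *ANXA1*, an anti-inflammatory phospholipid-binding protein, had 299, 263 and 242 CPM with 1,25(OH)2D3 and 393, 394 and 378 CPM with Wnt3A (log2 difference -0.54, SE 0.05, adjusted p = 3.31e-13). In all, 13 of 28 genes were higher with 1,25(OH)2D3 and 7 with Wnt3A, against 15.3% and 15.4% of all genes. The median of 0.18 was 0.11 without 1,25(OH)2D3 library 1 and turned to -0.02 with DESeq2 or with no filter on low counts.

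Among collagen genes 12 of 24 were higher with 1,25(OH)2D3 and 4 (16.7%) with Wnt3A, against 15.3% and 15.4% of all genes. The list median was 0.11 (0.06 to 0.15 over the alternatives), and without the term for the experiment the counts were 7 and 3. *COL1A1*, a chain of fibrillar collagen I, had 7950.5, 8557 and 9189.8 CPM with 1,25(OH)2D3 and 5895, 5219.9 and 4981 CPM with Wnt3A (log2 difference 0.68, SE 0.062, adjusted p = 2.72e-08), and *COL3A1* differed by 0.50 (SE 0.045, adjusted p = 1.03e-13). The other chain of collagen I, *COL1A2*, had 6286, 6252 and 6443 CPM with 1,25(OH)2D3 and 6886, 6426 and 5899.5 CPM with Wnt3A and was not called (log2 difference -0.01, SE 0.042, adjusted p = 0.838, 95% interval -0.10 to 0.07). *COL6A3*, a chain of the beaded collagen VI, went the other way with 5899, 6017 and 7531 CPM with 1,25(OH)2D3 and 8809, 8468 and 10126 CPM with Wnt3A (log2 difference -0.50, SE 0.041, adjusted p = 3.65e-15). *COL14A1* had 755, 750.2 and 670.0 CPM with 1,25(OH)2D3 and 462, 390.4 and 381 CPM with Wnt3A (log2 difference 0.82, SE 0.047, adjusted p = 4.36e-21) and *COL15A1* differed by 0.85 (SE 0.061, adjusted p = 2.85e-17), while *COL13A1* was higher with Wnt3A (log2 difference -0.90, SE 0.089, adjusted p = 1.87e-12). The cross-linking enzyme gene *LOX* had 1901, 1836 and 1942 CPM with 1,25(OH)2D3 and 1379, 1322 and 1339.5 CPM with Wnt3A (log2 difference 0.49, SE 0.043, adjusted p = 5.5e-14). Of 38 matrix glycoprotein genes, 14 were higher with the hormone and 4 with Wnt3A, with fibrillin-1 (*FBN1*, log2 difference 0.51, SE 0.051, adjusted p = 1.64e-11) on one side and glypican-4 (*GPC4*, log2 difference -0.67, SE 0.05, adjusted p = 9.08e-17) on the other.

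Matrix proteases and inhibitors were divided, with 13 of 40 higher with 1,25(OH)2D3 and 10 with Wnt3A, against 15.3% and 15.4% of all genes. *MMP14*, a membrane-bound collagenase, had 957, 927 and 961 CPM with 1,25(OH)2D3 and 1322, 1244 and 1429.6 CPM with Wnt3A (log2 difference -0.49, SE 0.044, adjusted p = 8.57e-14), and its inhibitor *RECK* was higher with the hormone (log2 difference 0.64, SE 0.052, adjusted p = 2.77e-15), as *TIMP3* was. *ADAMTS9*, a protease of large proteoglycans, had 63.0, 63.0 and 63.7 CPM with 1,25(OH)2D3 and 21.0, 22.6 and 19.1 CPM with Wnt3A (log2 difference 1.6, SE 0.094, adjusted p = 7.31e-21). *ADAMTS1* differed by 0.51 (SE 0.044, adjusted p = 2.16e-14), with its vehicle mean of 827 ± 46.3 CPM near the hormone.

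Contractile and cytoskeletal genes were balanced, with 12 of 48 higher with each agent (25.0%), against 15.3% and 15.4% of all genes. *VIM*, the intermediate filament of mesenchymal cells, had 4964, 4678 and 4598 CPM with 1,25(OH)2D3 and 8276, 7964 and 7990.1 CPM with Wnt3A (log2 difference -0.77, SE 0.04, adjusted p = 6.69e-23) and overlaps an antisense gene. *CALD1*, an actin-binding protein of smooth muscle, had 1323, 1132 and 1267 CPM with 1,25(OH)2D3 and 2015, 1806 and 2030.1 CPM with Wnt3A (log2 difference -0.65, SE 0.043, adjusted p = 1e-18). *MYOCD*, the coactivator that drives smooth muscle genes, had 77.3, 87.0 and 58.6 CPM with 1,25(OH)2D3 and 25.6, 21.9 and 18 CPM with Wnt3A (log2 difference 1.76, SE 0.093, adjusted p = 1.03e-22), opposite in sign to *CALD1*. The markers *ACTG2* (log2 difference -0.36, SE 0.049, adjusted p = 2.64e-08) and *TAGLN* (log2 difference -0.24, SE 0.048, adjusted p = 7.72e-05) were higher with Wnt3A within experiments although the groups overlapped. *ACTA2*, smooth muscle actin, had 168, 118 and 133 CPM with 1,25(OH)2D3 and 168, 99.7 and 134 CPM with Wnt3A and was not called (log2 difference 0.07, SE 0.062, adjusted p = 0.445, 95% interval -0.06 to 0.19), and neither was *S100A4* (log2 difference 0.01, SE 0.046, adjusted p = 0.873, -0.08 to 0.10). Both *ACTA2* and *TAGLN* overlap a gene on the other strand.

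Of 34 tested transcription factor genes of mesenchymal position and identity, 16 (47.1%) were higher with 1,25(OH)2D3 and 4 (11.8%) with Wnt3A. The shares over all genes were 15.3% and 15.4%, the list median was 0.30, and without the term for the experiment 14 and 2 were higher. *OSR2* had 29.5, 26.0 and 27.3 CPM with 1,25(OH)2D3 and 4.89, 6.94 and 3.66 CPM with Wnt3A (log2 difference 2.43, SE 0.15, adjusted p = 6.31e-20), with vehicle at 5.28 ± 0.724 CPM, at the level of Wnt3A. Its relative *OSR1* had 17.4, 15.7 and 14.1 CPM with 1,25(OH)2D3 and 7.5, 6.02 and 5.15 CPM with Wnt3A (log2 difference 1.34, SE 0.16, adjusted p = 1.06e-09), and here vehicle lay below both agents at 2.29 ± 0.648 CPM. *FOXL1*, a factor of the cells beneath the crypt epithelium, had 85.7, 79.0 and 92.0 CPM with 1,25(OH)2D3 and 51.8, 46.5 and 43.9 CPM with Wnt3A (log2 difference 0.85, SE 0.075, adjusted p = 3.77e-14). *TBX2* differed by 0.70 (SE 0.052, adjusted p = 9.93e-17), *FOXF1* by 0.47 (SE 0.049, adjusted p = 1.32e-11) and *ZEB1* by 0.48 (SE 0.051, adjusted p = 2.59e-11), and the groups did not overlap in any of these 6 genes.

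BMP and TGF-β genes showed no common direction. Of 26 BMP genes, 12 were higher with 1,25(OH)2D3 and 9 with Wnt3A (median 0.14). The antagonist gene *GREM1* (792, 614 and 535 CPM with 1,25(OH)2D3 and 1046, 1019.5 and 834 CPM with Wnt3A, log2 difference -0.59, SE 0.049, adjusted p = 6.57e-15) was higher with Wnt3A, while the antagonist *FST* (log2 difference 0.76, SE 0.071, adjusted p = 3.35e-13) and the ligand gene *GDF6* (223, 242 and 250.5 CPM with 1,25(OH)2D3 and 131, 119.6 and 118 CPM with Wnt3A, log2 difference 0.95, SE 0.057, adjusted p = 1.83e-20) were higher with the hormone. Of 26 TGF-β genes, 8 and 9 were higher (7 and 5 without the term for the experiment), with a median of 0.03 (-0.01 to 0.07 over the alternatives). Without 1,25(OH)2D3 library 1, or without experiment 2, 5 were higher with Wnt3A. *TGFB2*, a ligand gene that overlaps a transcript on its own strand, had 139, 131 and 116 CPM with 1,25(OH)2D3 and 56.2, 55.5 and 53.7 CPM with Wnt3A (log2 difference 1.22, SE 0.071, adjusted p = 6.43e-21). *LRRC32*, which holds latent TGF-β at the cell surface, was higher with Wnt3A (log2 difference -0.96, SE 0.094, adjusted p = 1.67e-12). In the Notch pathway 2 of 12 genes were higher with the hormone and 3 with Wnt3A (1 and 3 without the term for the experiment), shares of 16.7% and 25.0% beside 15.3% and 15.4% of all genes. *RBPJ*, the DNA-binding factor of the pathway, had 109, 106 and 115 CPM with 1,25(OH)2D3 and 199, 221 and 218 CPM with Wnt3A (log2 difference -0.95, SE 0.058, adjusted p = 4.78e-20).

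Against 15.3% and 15.4% of all genes, 11 of 33 G protein signalling genes were higher with the hormone and 8 with Wnt3A. The latter count was 4 without the term for the experiment, 5 without 1,25(OH)2D3 library 2 and likewise 5 without Wnt3A library 1 or 2. *BDKRB2*, a bradykinin receptor gene, had 288, 231 and 214 CPM with 1,25(OH)2D3 and 152, 150.2 and 131 CPM with Wnt3A (log2 difference 0.75, SE 0.057, adjusted p = 1.18e-16). *GPRC5A* differed by 0.76 (SE 0.061, adjusted p = 1.38e-15), with vehicle at 207 ± 11.3 CPM, above the hormone mean of 184 ± 7.78 CPM. Junction genes were divided too, with 7 of 28 (25.0%) and 9 of 28 (32.1%) called. The gap junction gene *GJA1* (log2 difference 0.63, SE 0.053, adjusted p = 7.7e-15) and the claudin gene *CLDN23* (log2 difference 1.16, SE 0.11, adjusted p = 2.2e-13, overlapping another gene) were higher with the hormone, and the cadherin gene *CDH6* (85.9, 72.9 and 78.8 CPM with 1,25(OH)2D3 and 166, 159 and 162 CPM with Wnt3A, log2 difference -1.03, SE 0.062, adjusted p = 1.73e-20) and the adhesion gene *AMIGO2* (104, 91.6 and 129.7 CPM with 1,25(OH)2D3 and 218, 191 and 225 CPM with Wnt3A, log2 difference -0.97, SE 0.058, adjusted p = 1.71e-20) with Wnt3A.

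Of 40 genes of the endoplasmic reticulum stress responses, 15 were higher with Wnt3A and 6 with the hormone (11 and 3 without the term for the experiment) and a median of -0.11. Without Wnt3A library 3 the count higher with the hormone was 3. The chaperone gene *HSPA5* had 552, 499 and 582 CPM with 1,25(OH)2D3 and 688, 666 and 825 CPM with Wnt3A (log2 difference -0.41, SE 0.046, adjusted p = 8.25e-11), and its vehicle mean was 857 ± 85.8 CPM, above both. *PPP1R15A* differed by -0.50 (SE 0.054, adjusted p = 4.55e-11) and *CHAC1* by -0.65 (SE 0.077, adjusted p = 6.06e-10). Against these stood *DDIT4*, an inhibitor of mTOR signalling, with 44.9, 47.5 and 48.1 CPM with 1,25(OH)2D3 and 16.1, 17.2 and 21.6 CPM with Wnt3A (log2 difference 1.35, SE 0.099, adjusted p = 5.75e-17), and *CEBPB* with 75.8, 98.6 and 85.6 CPM with 1,25(OH)2D3 and 36.8, 38 and 35.9 CPM with Wnt3A (log2 difference 1.23, SE 0.077, adjusted p = 1.12e-19), which overlaps an antisense gene. Of 38 genes of glycolysis and the hypoxia response, 10 (26.3%) were higher with 1,25(OH)2D3 and 12 (31.6%) with Wnt3A. Over all genes these shares were 15.3% and 15.4%. The glucose transporter gene *SLC2A3* had 34.5, 37.9 and 37.3 CPM with 1,25(OH)2D3 and 86.2, 88.0 and 78.3 CPM with Wnt3A (log2 difference -1.20, SE 0.079, adjusted p = 7.9e-19), opposite in sign to *VEGFA*. *EPAS1*, the gene of hypoxia-inducible factor 2α, had 996, 1076 and 913 CPM with 1,25(OH)2D3 and 683, 662 and 583 CPM with Wnt3A (log2 difference 0.63, SE 0.046, adjusted p = 3.32e-17).

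Lipid genes held calls in both directions. In cholesterol synthesis and uptake 4 of 29 were higher with each agent, a share of 13.8% in each direction beside 15.3% and 15.4% of all genes. *ABCA1*, which exports cholesterol, had 38.8, 39.5 and 43.5 CPM with 1,25(OH)2D3 and 16.5, 18.6 and 12.5 CPM with Wnt3A (log2 difference 1.36, SE 0.12, adjusted p = 2.45e-14). Fatty acid genes were called for 9 and 8 of 36, among them *PPARG*, the adipogenic nuclear receptor, with 62.0, 65.7 and 53.7 CPM with 1,25(OH)2D3 and 38.1, 36.0 and 38.2 CPM with Wnt3A (log2 difference 0.69, SE 0.081, adjusted p = 4.68e-10), and *FASN*, fatty acid synthase (log2 difference -0.42, SE 0.06, adjusted p = 8.54e-08). Without experiment 2 the latter count was 5. Of 43 interferon-stimulated genes, 10 and 7 were called (5 and 3 without the term for the experiment), and their median was -0.34 within experiment 1 and 0.09 and 0.04 within experiments 2 and 3. Leaving out 1 library at a time moved the count higher with Wnt3A between 3 (without 1,25(OH)2D3 library 1) and 15 (without 1,25(OH)2D3 library 2), so this list has no settled count. *IRF1* was higher with the hormone (log2 difference 0.77, SE 0.06, adjusted p = 6.98e-16, overlapping an antisense gene). The complement list held 4 and 3 calls of 16 (2 and 1 without the term for the experiment), with *PTX3*, a pattern-recognition protein, at 392, 333 and 454 CPM with 1,25(OH)2D3 and 196, 146 and 165 CPM with Wnt3A (log2 difference 1.22, SE 0.06, adjusted p = 2.85e-22).

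Ribosomal and respiratory genes held few calls. Of 62 genes of oxidative phosphorylation, 2 were higher with 1,25(OH)2D3 and 3 with Wnt3A (median -0.05, -0.09 to -0.02 over the alternatives). Of 56 cytosolic ribosomal protein genes 1 and 7 were called (0 and 2 without the term for the experiment), with a median of -0.05 (-0.09 to -0.02 over the alternatives). The 7 became 4 without 1,25(OH)2D3 library 1 and 2 without Wnt3A library 3. Both lists stood below the 15.3% and 15.4% of all genes. Across the 36 function lists, whose 1102 tested genes held 301 and 296 calls, the median for mitosis was the lowest in every alternative (-0.57 to -0.47), while the list with the highest median changed with the setting. Among the 5 most abundant genes not called were *FLNA*, a cross-linker of actin, with -0.06 (SE 0.044, adjusted p = 0.292) and a 95% interval of -0.15 to 0.02, and *CALU*, a calcium-binding protein gene, with -0.02 (SE 0.042) and -0.10 to 0.07. *GAPDH*, which overlaps a gene on the other strand, differed by -0.09 (SE 0.042, adjusted p = 0.0912), with an interval of -0.17 to -0.01.

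**Figure D4:**
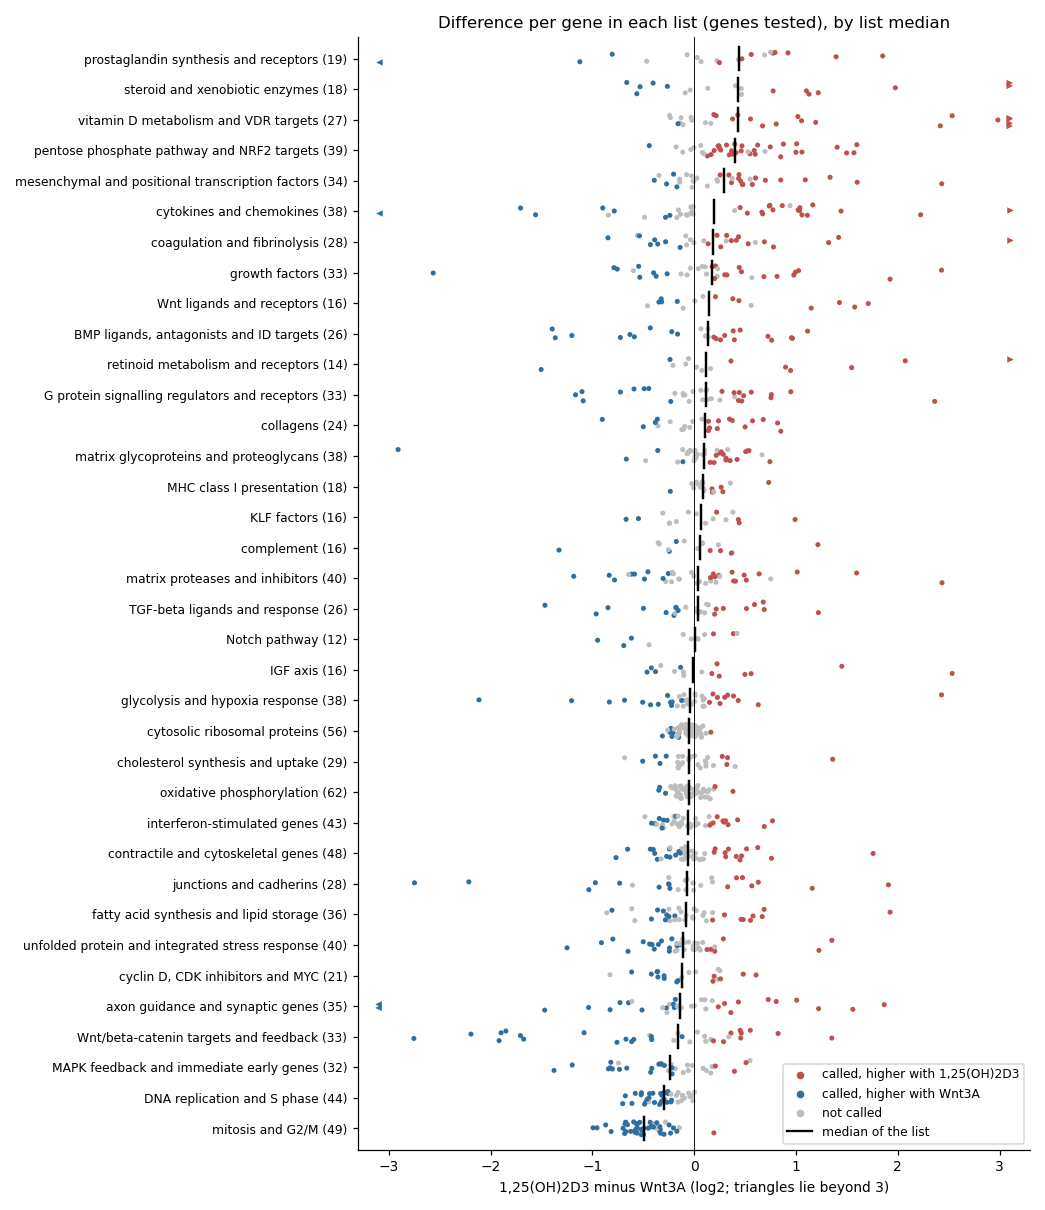
Difference between 1,25(OH)2D3 and Wnt3A (horizontal axis, log2) for each tested gene of 36 lists, ordered by the list median (black bars), with the number tested in brackets. Red and blue points were called higher with 1,25(OH)2D3 and with Wnt3A, and grey ones were not called. The mitosis list has the lowest median (-0.50) and at the top the vitamin D, steroid and xenobiotic, and prostaglandin lists lie at 0.43 to 0.44, an order that changed with the setting. With a higher count filter the steroid and xenobiotic median was 0.125. Genes beyond 3 are drawn as triangles at the edge.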

How the data were processed

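The authors made stranded polyA+ libraries from CCD-18Co RNA, read 40 bases from 1 end of each fragment and used ELAND v2e (CASAVA 1.8) with the GRCh37/hg19 genome. The summing program, annotation and strand setting of the counting were not given in the sources used here. Per gene, the deposited values are whole-number counts, not normalized, and behave as aligned bases: 78.2% to 80.9% of low values are multiples of 40. Over 1711 genes at 1 to 5 reads on average, the variance over the mean was 45.2 as deposited and 1.14 after division by 40. Values were therefore divided by 40 and rounded, and are called read equivalents.

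All 12 libraries entered 1 edgeR 4.0.16 quasi-likelihood fit in R 4.3.3 (TMM, robust, minimum count of 10 in filterByExpr) with terms for treatment and for the experiment number, and 1,25(OH)2D3 was contrasted with Wnt3A. P-values were adjusted by Benjamini-Hochberg over 12216 genes and called under 0.05, and glmTreat tested differences against 1.5-fold. The fit left 6 residual degrees of freedom per gene. Gene variances were drawn towards a trend over all genes, with a median prior of 46.5 degrees of freedom. The pairing rests on the independent experiments behind the numbers. Deviations from the group means correlated at 0.24, 0.35 and 0.38 between same-numbered libraries over 6108 genes and at -0.25 to -0.06 between others. No pair of libraries agreed within sampling noise. Tested on simulated data, the fit called 54 of 67 genes changed 1.5-fold, 62 of 67 changed 2-fold and 66 of 66 changed 4-fold, with 10 false calls. The simulated counts came from the kind of model the fit assumes, with few genes changed and only in the hormone group. The check therefore does not cover the calls on the real data.

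Genes were named by a rule: those the study names for RNA, the 15 largest differences in each direction (called, at least 5 CPM in the higher group and the same direction in all 3 pairs), the 8 smallest p in each direction, up to 6 called members of each list with the smallest p, and the 5 most abundant genes not called. Not every gene so chosen is described, and some are not reported here. The members, lists and rule were chosen with earlier results of these data known. Ratios with a 95% interval for genes at low counts are exact and cover counting error only, since the reads carry no molecular identifiers. Start regions and motifs come from RefSeq (GRCh38.p14), matched by symbol for 9866 of 12216 genes, and gene positions are those of GRCh37. Alternatives were the fit without the experiment term, the 6 libraries alone, DESeq2 1.42.0, other scalings, filters and thresholds, undivided values and leaving out libraries. Figures were drawn with matplotlib 3.10.9.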

Additional observations from a re-analysis of the deposited data

How the results depend on the processing

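In every alternative the genes called in common with the reported 3753 had the same direction. None of the 243 named genes called changed sign where it was tested. The sign of named genes that were not called was not followed. Without the block for the experiment, 2738 genes were called (1434 higher with 1,25(OH)2D3 and 1304 with Wnt3A), and 291 passed 1.5-fold (197 and 94). Counts within lists that it moved by more than 1.5 times are given beside them in the report. With DESeq2, 2323 genes were called over 12 libraries with the block (1271 and 1052) and 1857 over the 6 libraries alone without it (1034 and 823). Testing against 2-fold in place of 1.5-fold left 119 genes (83 and 36). Scaling by library totals alone gave 3945 calls (1598 and 2347), so the share higher with 1,25(OH)2D3 was 40.5% in place of 49.9%. The 6 libraries alone with the block, RLE scaling, other count filters, an adjusted p under 0.01 and undivided values gave 2675 to 3809 calls. Leaving out 1 library or 1 experiment gave 2508 to 3291 calls, with 1323 to 1675 higher with 1,25(OH)2D3 and 1185 to 1634 higher with Wnt3A, and leaving out 1 library gave 325 to 351 past 1.5-fold (214 to 237 and 107 to 115). The count of 1185, without experiment 2, was the only one of these that fell by more than 1.5 times. The cause of these moves was not tested, apart from fewer libraries where some were left out. Of the 243 named genes called, at most 25 were no longer called in any 1 setting, the most with DESeq2 on the 6 libraries alone. Depth limits the genes with few reads, whose ratios span several-fold intervals, and 1 line and 1 time point were measured.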
